A study of Mus musculus with 298 samples.

Results

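Voltage-gated potassium channel subunits were examined in individual neurons of the suprachiasmatic nucleus (SCN), the circadian pacemaker in the mouse hypothalamus. The members were the gene symbols of the count table that begin with Kcn and continue with a, b, c, d, e, f, g, h, q, s or v and a number, together with the beta subunits Kcnab1 to Kcnab3, and with the 4 Kv channel-interacting proteins Kcnip1 to Kcnip4. The rule found 52 of 22800 gene symbols and used no measured value. It covers the pore-forming families Kv1 (Kcna, 8 genes), Kv2 (Kcnb, 2), Kv3 (Kcnc, 4), Kv4 (Kcnd, 3), Kv7 (Kcnq, 5) and the EAG, ERG and ELK channels (Kcnh, 8). It also covers the modifier families Kv5, Kv6, Kv8 and Kv9 (Kcnf, Kcng, Kcnv and Kcns), the Kv beta subunits (Kcnab, 3), the single-pass KCNE proteins (Kcne, 5) and the KChIPs (Kcnip, 4).

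The data come from patched cells labelled as SCN interneurons, whose cytoplasm was drawn into a patch pipette and sequenced after their firing had been recorded in a slice. Mice lived in 12 h light and 12 h dark, and slices were cut near ZT0 for day cells and near ZT12 for night cells, where ZT0 is lights on. The groups were day active cFOS+ (51 cells), day active cFOS- (27), day silent cFOS+ (17), day silent cFOS- (32), night active cFOS+ (41), night active cFOS- (46), night silent cFOS+ (35) and night silent cFOS- (35). A further 14 cells were labelled depolarized, of which 2 were day cFOS+, 7 day cFOS-, 3 night cFOS+ and 2 night cFOS-. No genotype, strain, sex, age, animal or slice was named in the labels used here, and several cells were taken from the same slice. Cells are not replicates of a condition, so each group was treated as 1 sample, nothing was tested between groups and no p-value is given.

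Voltage-gated potassium channels open on depolarization and repolarize the membrane. They set spike width, the interval between spikes and how long a neuron can keep firing. Pore-forming subunits assemble as tetramers, mostly within a family, and cytoplasmic or single-pass partners change their gating and surface level. In SCN neurons, fast delayed rectifier current through Kv3 channels, A-type current through Kv4 and Kv1 channels, and Kv12 (ELK) current have each been linked to the daily change in firing rate.

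Library depth ranged from 3187057 to 25535298 reads (median 6320667). The profiles of 2 night silent cells, 1 labelled cFOS+ and 1 cFOS-, were almost the same (r = 0.9995 against 0.696 for the next pair), so they were averaged as 1 cell without a cFOS label. This left 297 distinct cells. Fos itself stood at 2005.3 CPM in cells labelled cFOS+ and 2675.7 CPM in cells labelled cFOS-, against the direction of the label. All 10 neuron markers were found in the pooled cells, and each cell held at least 100 CPM of them in sum. Microglia markers reached 100 CPM in sum in 113 cells, 43.3% of day cells and 32.7% of night cells. A set of 28 cells, 27 of them without Avp or Vip, had 100 CPM or more of Slc17a6, the vesicular glutamate transporter. SCN neurons are mainly GABAergic, yet in those 27 cells the GABA-synthesis gene Gad1 was found in 6 of 24 cells deep enough to score, against 100 of 106 other cells without either peptide. Firing, time and cFOS calls that change without the Slc17a6 cells are given beside those results.

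Kv subunit genes were sparse in single neurons. Levels are given as CPM, a gene's reads scaled to the pooled reads of the cells. Of 52 members, 14 reached 20 CPM over all 297 cells, 11 lay between 5 and 20 CPM and 27 lay under 5 CPM. In that lowest set, 14 were at 1 to 5 CPM and 13 under 1 CPM, and Kcne4 had no read in any cell. The median over cells was above 0 for 3 members, among them Kcnc1 (0.497 CPM) and Kcnc2 (0.173 CPM). To compare cells at 1 depth, each was thinned to 4210000 reads, which left out 30 shallower cells of the 297. At a threshold of 5 thinned reads, 22 members were found in at least 10% of cells, 11 in at least 20% and 3 in at least 40%. Shares carry exact Clopper-Pearson 95% intervals and levels carry exact Poisson 95% intervals. Both cover counting error only, since reads were amplified without molecular identifiers and cells can share a slice or animal.

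Levels were compared between genes only per kilobase of annotated exon. On that scale Kcna3 led with 22.95 CPM per kb, followed by Kcnip4 (20.1), Kcnc2 (14.6) and Kcnh8 (11.7). By raw CPM, Kcnc2 stood at 104 CPM and Kcna3 at 43.7 CPM. Kcnc2 has 7138 bases of annotated exon and Kcna3 has 1902, so the 2 scales rank them differently. Each length joins the exons of all annotated transcripts of a gene. The order per kb therefore depends on how fully each gene is annotated, and so do the family shares that follow. Kcna3 alone gave 22.95 of the 26.4 CPM per kb of Kv1. Among the pore-forming subunits, the Kcnh family made up 25.9% of the summed level per kb, Kv1 23.5%, Kv3 22.5%, Kv4 9.37% and Kv7 7.93%.

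**Figure D1:**
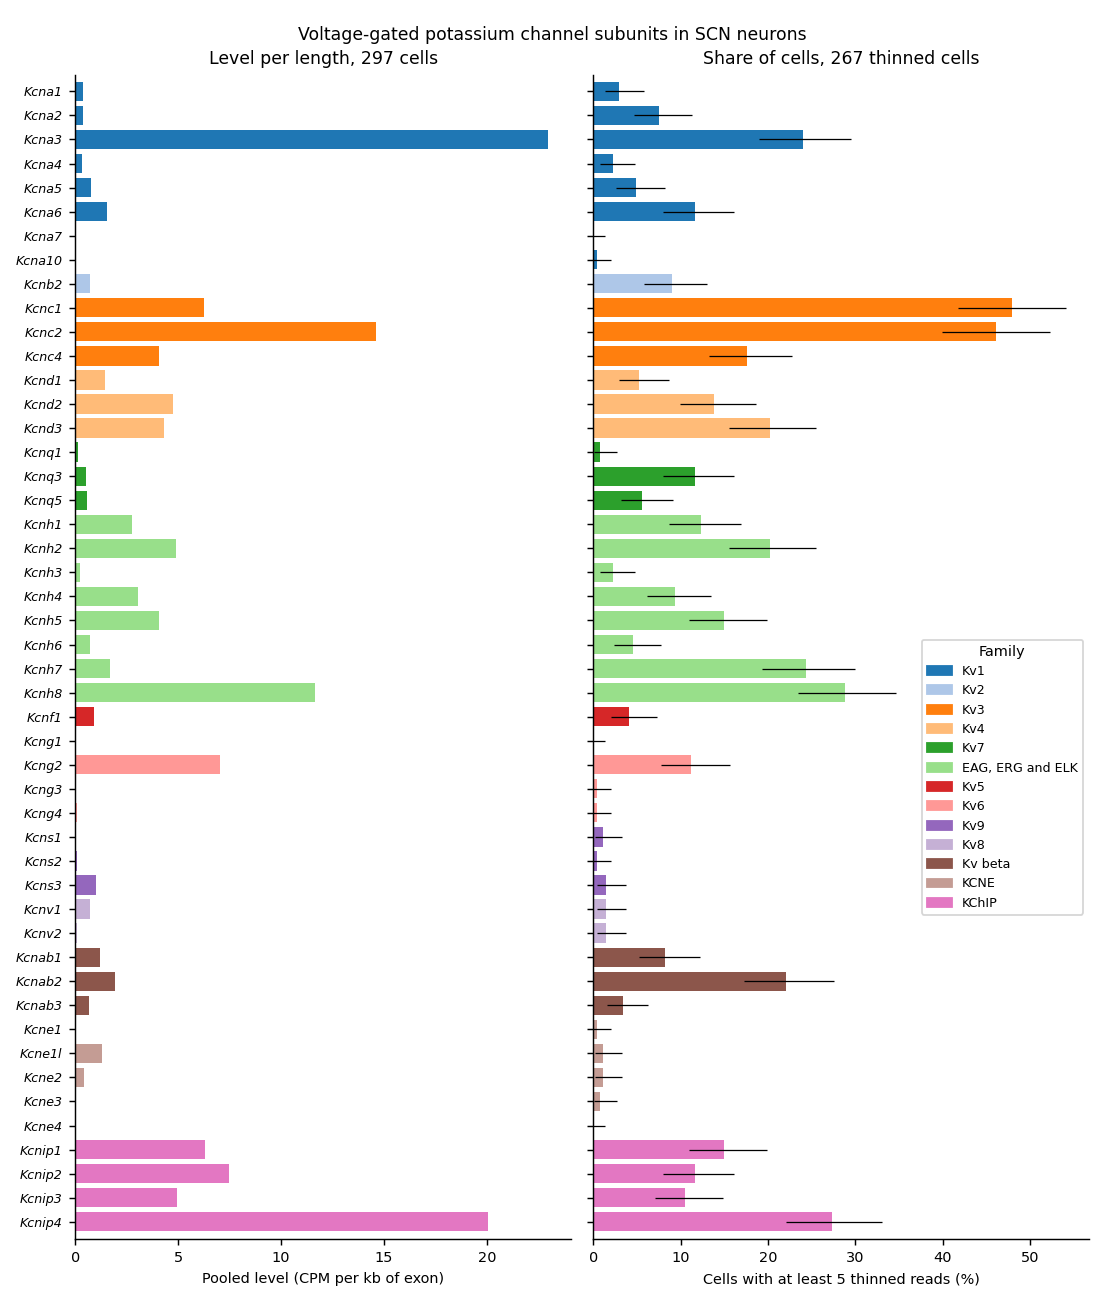
Level and detection of the members reported here, with pooled CPM per kb of exon on the left and the share of thinned cells with at least 5 reads on the right, coloured by family; error bars are exact 95% binomial intervals. Kcna3 and Kcnip4 lead per annotated exon length, an order that depends on the annotation, while Kcnc1 and Kcnc2 are found in 47.9% and 46.1% of cells.

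The Kv3 family, fast delayed rectifiers that keep spikes short, was the most widely found. At least 1 Kv3 gene was present in 195 cells (73.0%, 67.3 to 78.3). Kcnc1 (chr7:46396497-46438704, + strand, GRCm38) was found in 47.9% of cells (41.8 to 54.1) and Kcnc2 (chr10:112271121-112467024, + strand) in 46.1% (39.97 to 52.25). Kcnc1 ran from 0 to 701.6 CPM per cell, and Kcnc2 from 0 to 1061.7 CPM. Kcnc4, an inactivating Kv3 subunit, was found in 17.6% of cells at a pooled 14.9 CPM. Thus Kcnc1 and Kcnc2 together supplied most of the family's reads.

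Both main Kv3 genes were found together in 72 cells. Kcnc1 was present in 58.5% of cells with Kcnc2 (49.3 to 67.4) and in 38.9% of cells without it (30.9 to 47.4). Cells with Kcnc2 also had more detected genes, a median of 4897 against 4082.5, and the part of that difference was not tested.

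In the Kv1 family, low-threshold channels that limit repetitive firing, 1 gene carried most of the level. Kcna3 (chr3:107036169-107038070, + strand) had a pooled 43.7 CPM and was found in 23.97% of cells (18.98 to 29.55), up to 781.9 CPM in 1 cell. Kcna3 is also known from microglia and lymphocytes. Its pooled level was 42.9 CPM in the 113 cells with microglia markers and 44.1 CPM in the 184 cells without them. Kcna6 was found in 11.6% of cells, Kcna2 in 7.49%, Kcna5 in 4.87% and Kcna1 in 2.996%. Kcna7 and Kcna10 were under 0.1 CPM. Kcna4, an A-type subunit studied in SCN neurons, was found in 6 cells (2.25%, 0.829 to 4.83), and its 5 highest cells held 97.1% of its mean level. All 6 were active (4.03% of active cells, 1.49 to 8.56), while 0 of 105 thinned silent cells reached the threshold (exact upper limit 3.45%). Of the shallower cells left out of thinning, 1 day silent cell held 133.2 CPM, and by day the pooled level was 1.53 CPM in active and 1.585 CPM in silent cells. Kcna4 also stood at 3.86 CPM in cells with microglia markers and 0.0601 CPM in cells without them, and the part of those cells was not tested.

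Kv beta subunits bind Kv1 channels and can confer fast inactivation on them. Kcnab2 was found in 22.1% of cells at a pooled 10.9 CPM, Kcnab1 in 8.24% at 10.5 CPM, and Kcnab3 in 3.37% at 1.89 CPM. A Kv beta gene was present in 46 of 108 cells with a Kv1 gene (42.6%, 33.1 to 52.5) and in 34 of 159 cells without one (21.4%, 15.3 to 28.6). The median number of detected genes was 4849.5 in cells with a Kv1 gene and 4158 in cells without.

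Kv2 channels carry much of the slow delayed rectifier current. Kcnb2 was found in 8.99% of cells at a pooled 11.04 CPM. The electrically silent subunits Kv5, Kv6, Kv8 and Kv9 form no channel alone and modify Kv2. In this set only Kcng2, a Kv6 gene, reached 20 CPM, with 21.0 CPM and a share of 11.2%. Kcnf1 was found in 4.12% of cells. Among the other 8 silent-subunit genes, Kcns3 and Kcnv1 reached 3.20 and 3.35 CPM, and Kcng1, Kcng3, Kcng4, Kcns1, Kcns2 and Kcnv2 stayed under 1 CPM. A Kv2 gene was present in 24 of 52 cells with a silent subunit (46.2%, 32.2 to 60.5) and in 52 of 215 cells without (24.2%, 18.6 to 30.5). Detected genes again differed, with medians of 5333.5 and 4204.

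Kv4 channels carry the subthreshold A-type current, and KChIPs are the calcium-binding proteins that traffic them and slow their inactivation. Kcnd3 was found in 20.2% of cells at 41.4 CPM, Kcnd2 in 13.9% at 24.6 CPM, and Kcnd1 in 5.24% at 7.58 CPM. Each was concentrated in few cells. The 5 highest cells held 36.3% of the mean level of Kcnd3, 51.5% of that of Kcnd2 and 68.3% of that of Kcnd1. Of 87 cells with a Kv4 gene, 70 had 1, 16 had 2 and 1 had all 3.

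The KChIP genes had the largest summed level per kb of any family, 38.7 CPM per kb. Kcnip4 (chr5:48389502-49524907, - strand) was found in 27.3% of cells at 72.8 CPM and reached 1542.2 CPM. Kcnip1 (chr11:33629339-33993152, - strand) was found in 14.98% at 38.99 CPM, and its median in the cells that had it was 226 CPM, the highest of the 14 members at 20 CPM or more. Kcnip2 was found in 11.6% at 25.9 CPM, and Kcnip3, also known as the transcriptional repressor DREAM, in 10.5% at 17.5 CPM. A single KChIP gene was seen in 84 cells, 2 in 29 cells and 3 in 10 cells. A KChIP gene was present in 44 of 87 cells with a Kv4 gene (50.6%, 39.6 to 61.5) and in 79 of 180 cells without (43.9%, 36.5 to 51.5), and these intervals overlap. Dpp6 or Dpp10, the other known Kv4 partners, were present in 78.2% of cells with a Kv4 gene (68.02 to 86.3) and in 70% of cells without (62.7 to 76.6).

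Kv7 channels carry the slow M-type current that muscarinic receptors close. At least 1 Kv7 gene was present in 57.7% of cells (51.5 to 63.7). Kcnq3 was found in 11.6% of cells at 7.69 CPM. Kcnq5 was found in 5.62% of cells and Kcnq1 in 0.749%.

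Within the Kcnh family, the ELK gene Kcnh8 (chr17:52602709-52979194, + strand) had the highest level, 53.2 CPM, and was found in 28.8% of cells (23.5 to 34.7). The ELK genes Kcnh4 and Kcnh3 were found in 9.36% and 2.25% of cells. ERG channels, which close slowly and damp repetitive firing, were represented by Kcnh7 in 24.3% of cells at 25.7 CPM, Kcnh2 in 20.2% at 23.7 CPM, and Kcnh6 in 4.49% at 2.53 CPM. The EAG genes Kcnh5 and Kcnh1 were found in 14.98% and 12.4% of cells. At least 1 Kcnh gene was present in 67.4% of cells (61.4 to 73). KCNE proteins, which modify Kv7 and other channels, were found in 9 cells (3.37%, 1.55 to 6.30), and no Kcne gene passed 2.02 CPM.

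A cell held a median of 5 members at 5 thinned reads or more, with a range of 0 to 19, and 6 cells held none. This number followed the number of genes detected in the cell, with Pearson r = 0.779 and Spearman rho = 0.753 over the thinned cells (297 less the 30 left out). Both measures come from the same library and share its capture efficiency. The median was 5 in both active and silent cells, 4 in day cells and 5 in night cells, and 5 in both cFOS+ and cFOS- cells. Among the 91 pairs of the 14 members at 20 CPM or more, none had a Spearman rho above 0.3 in size over 297 cells. Kcnh1 with Kcnip1 had 0.221, and the lowest was -0.10 for Kcnh8 with Kcnip1. In counts this sparse such values are no finding.

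**Figure D2:**
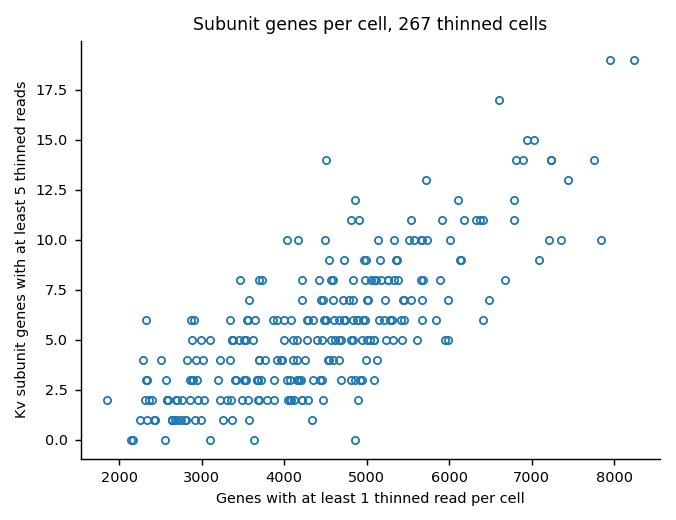
Number of member genes with at least 5 thinned reads in each thinned cell (vertical axis) against the number of genes with at least 1 thinned read (horizontal axis). Cells with more detected genes held more members, from 0 up to 19.

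The study set active against silent neurons, day against night and cFOS+ against cFOS-. For each, the reads of a group's cells were pooled, and groups were compared as the log2 ratio of (CPM + 1). A member was measured when 1 of the groups reached 20 CPM. It was called when it was past 2-fold, had the same sign in all 4 strata of the other labels, and kept its sign without its top cell in each group. The same rule applied to all genes gives the background.

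Between active and silent cells, the measured Kv genes went in both directions. Of 16 measured members 9 were higher and 7 lower in the 165 active cells than in the 118 silent cells, with a median log2 ratio of 0.14 against 0.0047 over all measured genes. Of these 1 met the call, as lower in active cells, where 1.52% of all 8662 measured genes were called lower. None was called higher, where 2.1% of all genes were. Before the strata were considered, 1 member was past 2-fold lower and 1 higher (Kcnh2), against 3.41% and 3.98% of all genes.

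Kcnip4 was lower in active cells, with 51.2 CPM (50.8 to 51.6) against 100.8 CPM (100.1 to 101.4) in silent cells. Its log2 ratio of -0.96 fell short of 2-fold, and it was lower in all 4 strata, though by 0.01 in the closest. Per cell, Kcnip4 ran from 0 to 1535.2 CPM in active cells and from 0 to 1542.2 CPM in silent cells, with a median of 0 in both. It reached 5 thinned reads in 30 active cells (20.1%, 14.02 to 27.5) and in 41 silent cells (39.05%, 29.7 to 49.1). These intervals cover counting error only. By day the levels were 56.3 CPM in active and 168 CPM in silent cells. At night they were 46.7 CPM in active and 51.6 CPM in silent cells. By day it was found in 13 of 71 active cells (18.3%, 10.1 to 29.3) and 21 of 43 silent cells (48.8%, 33.3 to 64.5). The difference between the times was not tested. By day, cells with 100 CPM or more of Vip, in which Kcnip4 was low, were 20 of 78 active and 2 of 49 silent cells. Their part was not tested.

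Kcnd3, a Kv4 subunit, was also lower in all 4 strata, with 32.4 CPM in active and 56.2 CPM in silent cells (log2 ratio -0.77). Its share was 20.8% of active and 20.95% of silent cells, shares that differ less than the levels do. Same-sign members were 3 of 16 (Kcnd3 and Kcnip4 among them, all lower). Of all genes, 14.4% had 1 sign in the 4 strata, 6.88% lower and 7.52% higher. Kcnh2, the ERG subunit that sets cardiac repolarization, was past 2-fold higher in active cells, with 31.4 CPM against 14.8 CPM in silent cells (log2 ratio 1.03). It was higher in 3 strata and lower in day cFOS+ cells, at -0.61, so it was not called. Without the top cell of each group it was higher in all 4 strata with a ratio of 1.16, which made it a call. Without the 28 Slc17a6 cells its ratio was 0.75. Kcnh1, an EAG subunit, stood at 22.4 CPM in active and 14.8 CPM in silent cells (0.56), and without the Slc17a6 cells its ratio was 1.37, which made it a call.

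Kcnc1, Kcnc2, Kcnd2 and Kcnh8 had no common sign over the 4 strata. Kcnc1 stood at 49.7 CPM in active and 73.1 CPM in silent cells (log2 ratio -0.55), higher in 2 strata and lower in 2. Kcnc2 stood at 94.4 CPM in active and 120.2 CPM in silent cells (-0.35), also split 2 and 2. Kcnd2 stood at 28.2 CPM in active and 18.9 CPM in silent cells (0.55), which turned to -0.13 without the top cell of each group. Kcnd1 was below the minimum, with 11.3 CPM in active and 2.92 CPM in silent cells, found in 6.04% and 3.81% of cells. Kcnh8 stood at 57.97 CPM in active and 47.3 CPM in silent cells (0.29), in 29.5% and 28.6% of cells.

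**Figure D3:**
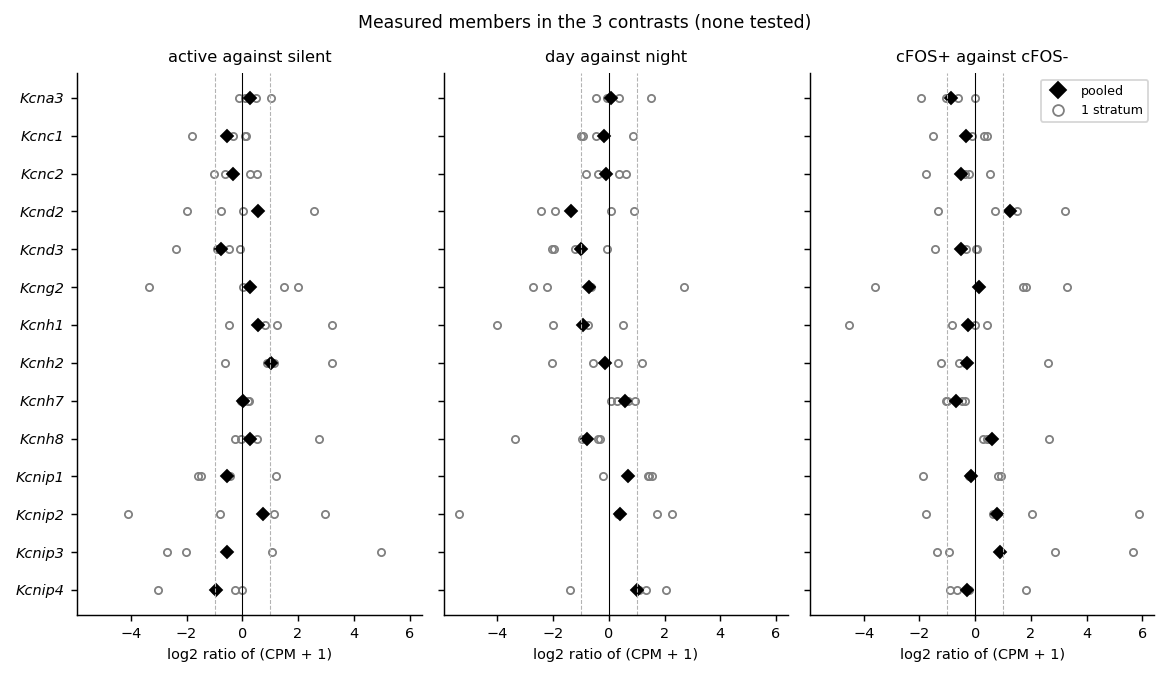
Log2 ratio of (CPM + 1) for measured members reported here in the 3 contrasts, as the pooled value (diamonds) and within each of 4 strata (circles), with dashed lines at 2-fold. Pooled values lie mostly within 2-fold while single strata spread from -5.37 to 5.87.

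Between day and night, 6 of 14 measured members were higher and 8 lower in the 127 day cells than in the 156 night cells (median log2 ratio -0.13, all genes -0.03). No member met the call in either direction, where 1.59% of all 8637 measured genes were called higher and 2.26% lower. Past 2-fold before the strata were considered were Kcnip4 (higher) and Kcnd2 (lower), against 3.86% and 4.36% of all genes. Microglia and astrocyte marker lists were both higher by day, 10 of 10 and 6 of 6 measured genes with median log2 ratios of 1.70 and 1.85, and their part in these values was not tested.

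Kcnip4 had a daytime level of 100.5 CPM against 48.9 CPM in night cells (log2 ratio 1.03), higher by day in 3 strata. Its shares were 29.8% in day cells (interval 21.6 to 39.1) and 26.4% in night cells (interval 19.3 to 34.5). Per cell it ran from 0 to 1542.2 CPM by day and from 0 to 1015.8 CPM at night. Kcnd2 had 12.6 CPM in day cells against 33.8 CPM in night cells (-1.35), and 1 night cell held 1660.9 CPM. With the highest cell of both groups left out the ratio was -0.63. Kcnd3 was lower by day in all 4 strata, at 27.1 CPM against 54.8 CPM in night cells (-0.99, strata -2.03 to -0.08). Without the Slc17a6 cells its ratio was -1.19, which made it a call.

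Kcnh8 was lower by day in all 4 strata too, at 37.9 CPM (37.5 to 38.3) in day cells against 66.2 CPM (65.7 to 66.7) in night cells. Its log2 ratio was -0.79, and the strata ran from -3.37 to -0.33. Kcnh8 was present in 30 of 114 cells by day (26.3%, 18.5 to 35.4) against 44 of 140 at night (31.4%, 23.8 to 39.8), with overlapping intervals. Kcnh8 ran from 0 to 1174.7 CPM per cell by day and from 0 to 1473.4 CPM at night. The lowest group was day silent, with 17.2 CPM, against 51.4 CPM in day active, 69.2 CPM in night silent and 63.7 CPM in night active cells. Kcnh7 was the one member higher by day in all 4 strata, at 32.2 CPM against 21.2 CPM in night cells (0.58). Same-sign members were 3 of 14, against 14.7% of all genes.

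The main Kv3 genes were within 1.12-fold of each other between day and night. Kcnc1 had 55.8 CPM in day cells against 62.5 CPM in night cells, and Kcnc2 had 100.9 CPM in day cells against 108.8 CPM in night cells. The share with Kcnc1 was 42.1% by day (interval 32.9 to 51.7) against 52.1% at night (interval 43.5 to 60.7). Kcna4 had 1.55 CPM in day cells against 1.60 CPM in night cells, in 3 of 114 and 3 of 140 cells. Kcnd1 had 10.6 CPM in day cells against 5.49 CPM in night cells, in 7 of 114 and 6 of 140 cells.

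**Figure D4:**
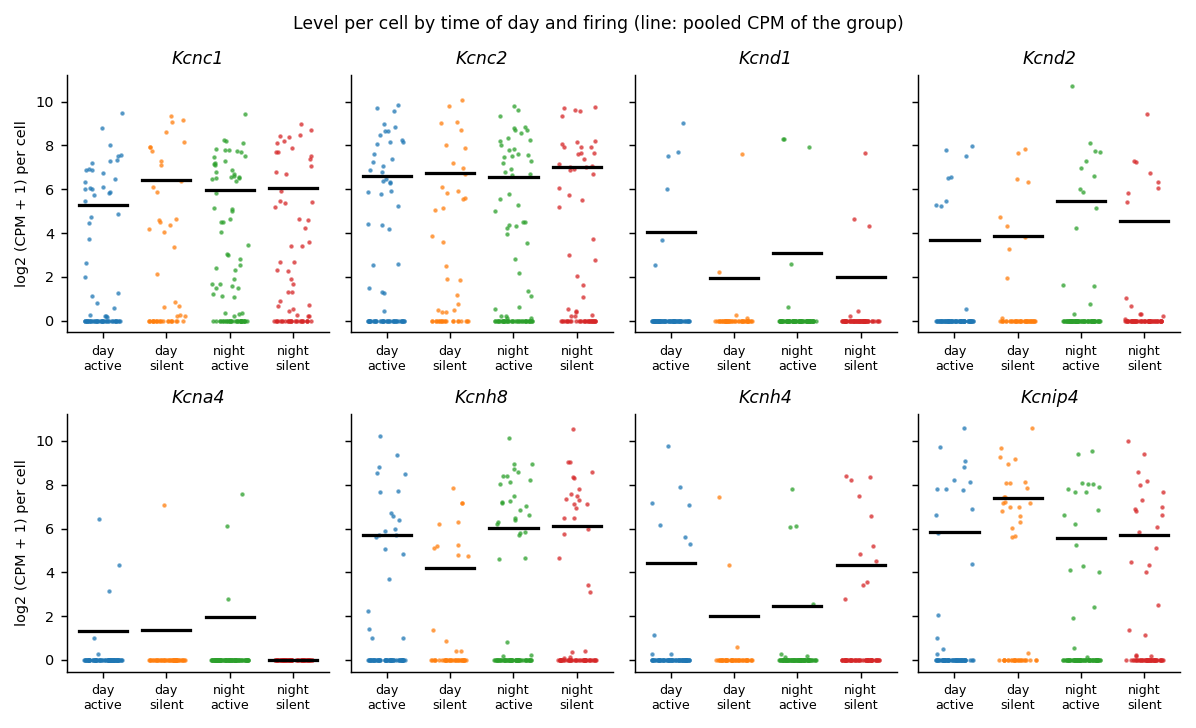
Level per cell, as log2 (CPM + 1), of 8 members in active and silent cells by day and at night, 1 point per cell, with a line at the pooled CPM of the group. Over all 297 cells the median was above 0 for Kcnc1 and Kcnc2 and 0 for the other members drawn. The points of the groups overlap, though Kcna4 had no read in night silent cells. Kcnip4 points are most frequent in day silent cells.

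Between cells labelled cFOS+ and cFOS-, 5 of 15 measured members were higher and 10 lower (median log2 ratio -0.26, all genes -0.03). None was called, where 1.28% of all 8624 measured genes were called higher and 2.16% lower. Kcna3 stood at 30.2 CPM in cFOS+ and 55.2 CPM in cFOS- cells (-0.85), lower in all 4 strata, though by 0.0017 in the closest. Its shares were 24.4% and 22.2%. Kcnh7 was lower in all 4 strata as well, with 19.9 CPM in cFOS+ and 32.7 CPM in cFOS- cells (-0.69). Kcnh8 was higher in all 4, with 64.96 CPM in cFOS+ and 42.5 CPM in cFOS- cells (0.60), in 34.6% (26.4 to 43.6) and 23.8% (16.7 to 32.2) of cells. Same-sign members were 3 of 15 (Kcna3, Kcnh7 and Kcnh8), against 14% of all genes. Kcnd2 was past 2-fold higher, where 2.99% of all genes were, with 34.7 CPM in cFOS+ and 14.1 CPM in cFOS- cells (1.24). None was past 2-fold lower, where 4.51% of all genes were. The highest Kcnd2 cell, at 1660.9 CPM, was cFOS+. All 10 measured microglia genes were lower in cFOS+ cells, with a median log2 ratio of -0.77, and their part was not tested.

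The firing contrast was also taken within each time. By day 13 members were measured, and 3 were past 2-fold higher in active cells (Kcnh2, Kcnh4 and Kcnh8) and 3 lower (Kcnc1, Kcnd3 and Kcnip4), against 9.94% and 10.1% of all genes. At night 16 were measured, with Kcnh1 and Kcnh2 past 2-fold higher and Kcnip3 lower, against 8.63% and 6.72% of all genes. By day, Kcnh8 stood at 51.4 CPM in active and 17.2 CPM in silent cells (1.52), and at night at 63.7 CPM in active and 69.2 CPM in silent cells (-0.12). Kcnc1 stood by day at 37.5 CPM in active and 84.0 CPM in silent cells (-1.14), and at night at 60.5 CPM in active and 65.2 CPM in silent cells (-0.11). Kcnd3 by day was at 11.9 CPM in active and 50.4 CPM in silent cells (-1.99), and at night at 50.4 CPM in active and 60.4 CPM in silent cells (-0.25). Kcnh4, an ELK subunit, stood by day at 20.3 CPM in active and 3.07 CPM in silent cells (2.38), and at night at 4.44 CPM in active and 19.1 CPM in silent cells. It was found by day in 8 of 71 active and 1 of 43 silent cells, and at night in 4 of 78 active and 10 of 62 silent cells. The differences between times were not tested. Cells with 100 CPM or more of Vip were 20 of the day active and 2 of the day silent cells, and their part was not tested.

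Kv subunits were also compared by peptide identity. Cells were classed by 100 CPM: 55 Vip cells, 95 Avp cells without Vip, and 147 cells with neither. Vasoactive intestinal peptide marks the retinorecipient core of the SCN and vasopressin its shell. The Avp threshold had 14 cells within 2-fold of it and the Vip threshold 2. The median Avp level in Vip cells was 0 CPM, and so was the median Vip level in Avp cells. Only 2 Vip cells were day silent, so that stratum is thin. Members pass the 20 CPM minimum through whichever class is high, so the counts below describe the measured ones only.

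Against cells with neither peptide, 7 of 18 measured members were past 2-fold lower in Avp cells, where 10.6% of all 8814 measured genes were. They included Kcnip1, Kcnip2, Kcnip3, Kcnab1, Kcnc4 and Kcnh1, and so 3 of the 4 KChIPs. One member was past 2-fold higher, Kcnc2, against 8.75% of all genes. In Vip cells 10 of 19 were past 2-fold lower, against 12.2% of all 8704 measured genes. They included Kcna3, Kcnab1, Kcnc4, Kcng2, Kcnh1, Kcnh7, Kcnip1, Kcnip2 and Kcnip4. With classes set at 10 or 1000 CPM the count in Vip cells was 6, and the share of all genes was not computed there. Kcnh5 was higher, against 7.18% of all genes. Both comparisons share the cells with neither peptide. The median log2 ratio of measured members was -0.27 in Avp cells (all genes -0.0071) and -1.02 in Vip cells (all genes -0.08).

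Kcnip1 was nearly absent from Avp cells. It stood at 0.0462 CPM (0.0314 to 0.0656) in Avp cells, 16.5 CPM (16.1 to 16.9) in Vip cells and 73.2 CPM (72.7 to 73.7) in cells with neither. Over 95 Avp cells it ran from 0 to 2.92 CPM with a median of 0. Over 55 Vip cells it ran from 0 to 321.1 CPM, and over 147 cells with neither from 0 to 747.7 CPM, both with a median of 0. Kcnip1 was found in 1 of 90 Avp cells (1.11%, 0.0281 to 6.04), 3 of 47 Vip cells (6.38%, 1.34 to 17.5) and 36 of 130 cells with neither (27.7%, 20.2 to 36.2). These intervals cover counting error only. Kcnip1 had the lowest log2 ratio of the 18 measured members in Avp cells, and it reached 20 CPM only in cells with neither. The log2 ratio against cells with neither was -6.15 for Avp cells, with a range of -7.10 to -5.52 over the 4 groups of time and firing. For Vip cells it was -2.08, with a range of -7.25 to -0.29.

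Kcnab1, the Kv beta subunit that inactivates Kv1 channels, was also low in both peptide classes. Like Kcnip1, it reached 20 CPM, and so was measured, only through cells with neither. It stood at 0.239 CPM in Avp cells, 0.5002 CPM in Vip cells and 21.0 CPM in cells with neither, and its highest cells held 24.1, 28.8 and 314.5 CPM in that order of classes. Kcnab1 was present in 3 of 90 Avp cells (3.33%, 0.693 to 9.43), 1 of 47 Vip cells (2.13%, 0.0538 to 11.3) and 18 of 130 cells with neither (13.8%, 8.42 to 21.0). For Kcnab1 the intervals of the classes overlap. The log2 ratio was -4.15 for Avp and -3.88 for Vip cells, with ranges of -4.87 to -3.75 and -4.70 to -2.83 over the 4 groups of time and firing. Among the cells with neither, 11 of 36 that had Kcnip1 also had Kcnab1 (30.6%, 16.3 to 48.1), against 7 of 94 that lacked Kcnip1 (7.45%, 3.05 to 14.7). Cells with Kcnip1 had a median of 5590 detected genes and cells without it 4280.5.

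The promoters of members that these comparisons turn on, 250 bases before to 50 after the RefSeq start furthest upstream, are given for GRCm38.p6 in lower case. Capitals mark a motif found by its letters on either strand, an E-box (CACGTG), the element bound by CLOCK and BMAL1, or an AP-1 site (TGANTCA), the element of Fos and Jun. Kcnip1 and Kcnab1 are shown as the measured members with the lowest log2 ratios in Avp cells, Kcnip4 and Kcnh8 for their class and time differences, and Kcnh4 as the gene whose firing ratio was past 2-fold in opposite directions by day and at night.
Kcnip1 (chr11:33993144-33993443, - strand): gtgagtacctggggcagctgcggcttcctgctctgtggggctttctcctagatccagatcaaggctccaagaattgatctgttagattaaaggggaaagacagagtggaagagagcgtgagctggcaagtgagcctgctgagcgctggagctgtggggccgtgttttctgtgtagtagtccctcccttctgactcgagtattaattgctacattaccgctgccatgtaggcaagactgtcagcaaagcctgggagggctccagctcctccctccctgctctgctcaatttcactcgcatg
Kcnab1 (chr3:64948962-64949261, + strand): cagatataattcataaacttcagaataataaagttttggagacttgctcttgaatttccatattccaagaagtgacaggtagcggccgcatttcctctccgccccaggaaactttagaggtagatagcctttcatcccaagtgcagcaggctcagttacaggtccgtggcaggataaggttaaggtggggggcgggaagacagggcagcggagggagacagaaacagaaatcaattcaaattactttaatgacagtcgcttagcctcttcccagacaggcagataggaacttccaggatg
Kcnip4 (chr5:49285610-49285909, - strand): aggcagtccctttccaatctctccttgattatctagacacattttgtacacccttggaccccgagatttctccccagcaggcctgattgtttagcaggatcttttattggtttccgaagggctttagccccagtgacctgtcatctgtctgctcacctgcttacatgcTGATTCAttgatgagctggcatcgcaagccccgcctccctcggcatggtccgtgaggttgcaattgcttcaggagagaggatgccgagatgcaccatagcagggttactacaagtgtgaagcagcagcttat
Kcnh8 (chr17:52602459-52602758, + strand): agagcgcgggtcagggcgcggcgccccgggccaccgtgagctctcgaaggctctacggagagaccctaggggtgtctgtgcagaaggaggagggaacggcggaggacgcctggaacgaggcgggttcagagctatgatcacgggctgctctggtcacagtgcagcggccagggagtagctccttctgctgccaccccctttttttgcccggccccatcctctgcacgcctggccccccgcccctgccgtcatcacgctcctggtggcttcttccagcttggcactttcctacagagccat
Kcnh4 (chr11:100759729-100760028, - strand): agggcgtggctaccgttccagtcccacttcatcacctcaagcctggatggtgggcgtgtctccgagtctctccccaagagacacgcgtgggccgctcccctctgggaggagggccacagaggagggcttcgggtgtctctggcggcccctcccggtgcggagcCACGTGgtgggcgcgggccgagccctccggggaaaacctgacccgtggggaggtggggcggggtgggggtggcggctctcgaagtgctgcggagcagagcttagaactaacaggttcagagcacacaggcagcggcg

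RefSeq gave promoters for 35 of 52 members, with 51 starts. The E-box letters were in 7.15% of 32851 mouse promoters of this length. Among the 51 member promoters they were in 4, of the 3 members Kcnab1, Kcne4 and Kcnh4, which is near that share. In Kcnab1 they lie at 2 other starts than the one printed, and in Kcnh4 they begin at position 164 of the printed window. AP-1 letters were in 7.81% of promoters and in 3 of the 51 member promoters, those of Kcne3, Kcnip3 and Kcnip4, also near that share. The cAMP response element (TGACGTCA, 1.79% of promoters) and the D-box (TTATGTAA, 0.938%) were in none of the members' windows. GC content was 54.3% for Kcnip1, 46.7% for Kcnab1, 51% for Kcnip4, 66% for Kcnh8 and 68.7% for Kcnh4, against a median of 52.7% over all promoters. A match is a description of letters and not a bound site.

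Kcng2, a silent Kv6 subunit, had no read in any of the 55 Vip cells. It stood at 33.4 CPM in Avp cells and 20.2 CPM in cells with neither. After thinning it was found in 12 of 90 Avp cells (13.3%, 7.08 to 22.1), 0 of 47 Vip cells (exact upper limit 7.55%), and 18 of 130 cells with neither (13.8%, 8.42 to 21.0). The interval of Avp cells begins at 7.08%, so it overlaps that of Vip cells. Kcnip4 was low in Vip cells as well, with 9.04 CPM in Vip cells, 112 CPM in Avp cells and 68.7 CPM in cells with neither. After thinning 4 of 47 Vip cells had it (8.51%, 2.37 to 20.4), 30 of 90 Avp cells (33.3%, 23.7 to 44.1) and 39 of 130 cells with neither (30.0%, 22.3 to 38.7). In Vip cells Kcnip4 was lower in all 4 groups of time and firing. In Avp cells its ratio was 0.70, and -0.17 without cells with microglia markers.

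Past 2-fold higher among the measured members were Kcnc2 in Avp cells and Kcnh5 in Vip cells. Kcnc2 stood at 163.3 CPM in Avp cells, 103 CPM in Vip cells and 65.1 CPM in cells with neither, and it was higher in Avp cells in all 4 groups. Its shares were 46.7%, 38.3% and 48.5% in the same order, so the level was higher in Avp cells while the share of cells was not. Against cells with neither, Kcnc2 in Vip cells had a ratio of 0.65, and of -0.25 without the top cell of each class. Kcnh5, an EAG channel, stood at 32.4 CPM in Vip cells, 19.9 CPM in Avp cells and 8.69 CPM in cells with neither. Against cells with neither, Kcnh5 in Avp cells had a ratio of 1.11 and was higher in all 4 groups. It was not counted there because neither level reached 20 CPM. It was found in 12 of 47 Vip cells (25.5%, 13.9 to 40.4), 16 of 90 Avp cells (17.8%, 10.5 to 27.3) and 12 of 130 cells with neither (9.23%, 4.86 to 15.6). Kcnh8 was found in 40 of 90 Avp cells (44.4%, 34.0 to 55.3), 13 of 47 Vip cells (27.7%, 15.6 to 42.6) and 24 of 130 cells with neither (18.5%, 12.2 to 26.2). Its level was 79.8 CPM in Avp cells, 29.4 CPM in Vip cells and 43.7 CPM in cells with neither, and its log2 ratio of 0.85 for Avp cells was short of 2-fold.

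Among the other members past 2-fold, Kcnh1 was found in 6 of 90 Avp cells, 3 of 47 Vip cells and 24 of 130 cells with neither, and Kcnc4 in 10 of 90, 6 of 47 and 31 of 130. Kcnip2 was found in 6 of 90 Avp cells, 5 of 47 Vip cells and 20 of 130 cells with neither. For Kcnip3 the counts were 5 of 90, 9 of 47 and 14 of 130, so its low level was in Avp cells and it stood at 31.8 CPM in Vip cells against 20.8 CPM in cells with neither. Kcna3 was found in 14 of 90 Avp cells, 10 of 47 Vip cells and 40 of 130 cells with neither, and Kcnh7 in 18 of 90, 9 of 47 and 38 of 130. Kcnab1, Kcng2, Kcnh1 and Kcnip1 kept ratios past 2-fold lower in Vip cells over 10 alternatives. In Vip cells Kcnip2 had a ratio of -1.32, which turned to 0.81 with classes at 10 CPM, and Kcnip4 was at -0.97 there. Kcnh7 had -1.25 in Vip cells, and -0.0018 in the cells with lower cell numbers in the labels, where Kcna3 was at -0.77. Kcnip3 in Avp cells had -1.84, and -0.89 in those with lower cell numbers. In those with higher cell numbers, Kcnc2 in Avp cells was at 0.37 and Kcnh5 in Vip cells at 0.58. Kcnc1 stayed within 2-fold in both peptide classes.

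**Figure D5:**
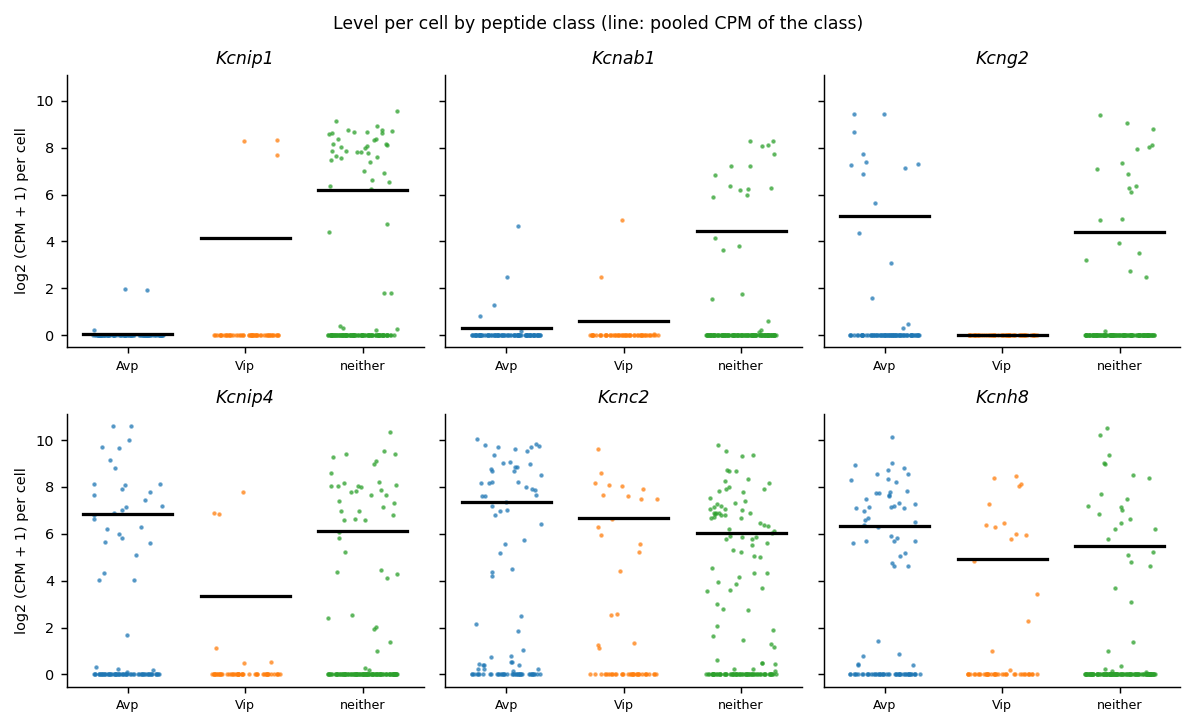
Level per cell, as log2 (CPM + 1), of 6 members in 95 Avp cells, 55 Vip cells and 147 cells with neither, 1 point per cell, with a line at the pooled CPM of the class. High Kcnip1 and Kcnab1 values lie almost all among cells with neither, and Kcng2 has no point above 0 in Vip cells.

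The classes also differed in ways apart from the peptides. Cells with neither had a median of 4867 detected genes, against 4247 in Avp cells and 4411 in Vip cells. Microglia markers reached 100 CPM in 30.5% of Avp cells, 34.5% of Vip cells and 44.2% of cells with neither. The neurofilament gene Nefl stood at 13.6 CPM in Avp cells, 16.7 CPM in Vip cells and 110 CPM in cells with neither. Slc17a6 stood at 0.861 CPM in Avp cells, 23.1 CPM in Vip cells and 89.7 CPM in cells with neither. Without the Slc17a6 cells, Kcnip1 was found in 1 of 90 Avp cells, 2 of 46 Vip cells and 21 of 106 cells with neither (19.8%, 12.7 to 28.7). Over 10 alternatives, this one and the removal of cells with microglia markers among them, the log2 ratio of Kcnip1 ran from -6.46 to -5.02 in Avp cells and from -2.90 to -1.11 in Vip cells. For Kcnab1 it ran from -4.42 to -3.63 in Avp cells and from -4.30 to -3.35 in Vip cells.

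Among cells with neither peptide, those with Slc17a6 had other Kv levels than those without. In the 27 cells with Slc17a6, Kcnip1 stood at 179.4 CPM (177.4 to 181.4), against 51.2 CPM (50.7 to 51.6) in the 120 without. It was found in 15 of 24 (62.5%, 40.6 to 81.2) and 21 of 106 (19.8%, 12.7 to 28.7) cells. Kcnab2 stood at 56.8 CPM in cells with Slc17a6 and 8.97 CPM in cells without. Kcnh8 went the other way, with 5.81 CPM in cells with Slc17a6 and 51.6 CPM in cells without, found in 4 of 24 and 20 of 106 cells. Kcnc1 stood at 33.04 CPM in cells with Slc17a6 and 60.6 CPM in cells without, and Kcnc2 at 36.2 and 71.1 CPM. The median number of members per cell was 9.5 in cells with Slc17a6 and 6 in cells without, and detected genes had medians of 5247 and 4478. This split was chosen after the class values were seen.

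Depolarized cells, 14 in all, are given as values beside the firing groups. Kcnip1 had no read in the 14 depolarized cells, and its share was 0 of 13 thinned cells (exact upper limit 24.7%). It stood at 33.7 CPM in active and 50.2 CPM in silent cells. The depolarized cells were mostly Avp cells (5 day, 1 night) or Vip cells (2 day, 1 night), classes low in Kcnip1. Only 2 day and 3 night cells had neither peptide, and the part of the classes was not tested. Kcna3 stood at 71.8 CPM, Kcnc2 at 82.2 CPM and Kcnc1 at 56.4 CPM in depolarized cells. Kcna3 stood at 45.9 CPM in active and 37.7 CPM in silent cells, and the Kcnc values are given above. Microglia markers reached 100 CPM in 7 of these 14 cells.

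Known partners of Kv channels were counted as a list of 18 genes, among them Dpp6 and Dpp10 for Kv4, Amigo1, Vapa and Vapb for Kv2, Cntnap1, Cntnap2, Dlg1, Dlg2, Dlg4, Lgi1, Adam22 and Adam23 for Kv1, and Ank3 and Nedd4l for Kv7. Of 16 measured in active against silent cells, 7 were higher and none was past 2-fold (median log2 ratio -0.06). Of all measured genes, 50.5% were higher and 7.39% past 2-fold in either direction. By day against night, 6 of 15 were higher and none was past 2-fold (median -0.08), against 47.3% and 8.22% of all measured genes. In cFOS+ against cFOS- cells 8 of 16 were higher and none was past 2-fold (median -0.01), against 46.8% and 7.5%. In a list this short, such counts set the partners apart from other genes in no contrast. Dpp6 stood at 274.2 CPM in active and 291.6 CPM in silent cells, and at 281.7 CPM in day cells against 281.4 CPM in night cells. Adam23, a Kv1 complex protein, stood at 43.8 CPM in active and 26.3 CPM in silent cells (0.71). It was the one partner higher in active cells in all 4 strata, where 7.52% of all genes were. Dpp6 and the calmodulin gene Calm2 were lower in all 4 strata, where 6.88% of all genes were.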

How the data were processed

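Single patched SCN neurons were sequenced from Nextera XT libraries, per the labels' protocols. The deposited counts are reads per gene and cell without molecular identifiers. A second deposited table holds the authors' normalized signal, used as an alternative. STAR, DESeq2 and GRCm38.p4 are named in the submitters' processing notes, with no role given here. For the counter, the annotation and the strand setting the sources used here give no statement.

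The reads of all cells in a group were pooled and divided by the group's total, giving CPM. Ratios are log2 of (CPM + 1), for genes at 20 CPM or more in 1 group. Detection means 5 reads after thinning to 4210000 reads per cell. No animal or slice is labelled, so each group is 1 sample and no difference was tested. Exon lengths and gene positions are from GENCODE M21 (GRCm38), promoters from RefSeq (GRCm38.p6). All members enter the counts, and a few are not reported by name here. Of the others, those at 20 CPM or more have values in at least 1 comparison of groups, though not in each. Those known from SCN physiology have their spread over cells shown. Members and lists were chosen with earlier results of these data known. The ratio code was tested on simulated data. The changed genes there had larger changes, higher levels and a more even spread over cells than most members. That run therefore does not show how the call behaves on counts this sparse. Alternatives changed the pseudocount, minimum, pooling, depth, class threshold and the cells kept. Python 3.11.15, numpy 2.4.6, scipy 1.17.1, pandas 2.3.3 and matplotlib 3.10.9 were used.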

Additional observations from a re-analysis of the deposited data

Results flagged for a closer look

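Kcnh4, an ELK channel subunit, had opposite firing ratios by day and at night. Between active and silent cells its log2 ratio of (CPM + 1) was 1.68 in day cFOS+ and 2.54 in day cFOS- cells. At night it was -1.68 in cFOS+ and -2.19 in cFOS- cells. Both day values lie above 0 and both night values below it, and the difference between day and night was not tested. The levels rest on few cells, 9 of 114 by day and 14 of 140 at night with 5 thinned reads or more. Of 10656 genes at 20 CPM in any of the 8 groups, 64 (0.601%) were past 2-fold in each of the 4 strata with signs that split between day and night, and of 24 members 1 was. By sign alone 1304 genes (12.2%) split so, and 2 of the 24 members, Kcnh4 and Kcnh8. Kcnh8 had 0.53 in day cFOS+ and 2.77 in day cFOS- cells, against -0.04 in night cFOS+ and -0.27 in night cFOS- cells.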

How the results depend on the processing

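Of the counts of members recomputed under each alternative, 143 stayed within 1.5 times of the reported count and 62 did not. The share of all genes was not computed under the alternatives. The counts below show how much the reported ones move and have no background to be set against. For active against silent cells, the number higher was 5 with the top cells left out, 18 at a minimum of 5 CPM and 32 with no minimum. Calls of lower members were 0 by the mean over cells of CPM, by the authors' normalized signal, without the top cells, at a pseudocount of 5 CPM, without cells with microglia markers, at lower cell numbers and without the near-identical pair, and 2 with no minimum or by the mean of the strata. Calls of higher members were 2 with no minimum and 1 without the top cells, at a minimum of 5 CPM, without microglia-marker cells, at lower or higher cell numbers and without Slc17a6 cells. For day against night, the number higher was 17 at a minimum of 5 CPM, 21 with no minimum and 10 at lower cell numbers. Calls of lower members were 1 at a pseudocount of 0.1 CPM, without the near-identical pair and without Slc17a6 cells, and 2 with no minimum, at lower cell numbers and by the mean of the strata; 2 were called higher at lower cell numbers. For cFOS+ against cFOS- cells, the number higher was 1 without the top cells, 13 at a minimum of 5 CPM, 24 with no minimum and 10 at higher cell numbers. Calls of higher members were 1 at a minimum of 5 CPM, 2 with no minimum and 3 without microglia-marker cells. Calls of lower members were 1 by the normalized signal and at a minimum of 5 CPM, and 2 with no minimum and at lower cell numbers. By day, active members higher than silent were 16 at a minimum of 5 CPM, 26 with no minimum, and 11 both without microglia-marker cells and at lower cell numbers. At night they were 5 by the normalized signal, 16 at a minimum of 5 CPM and 30 with no minimum.

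The class alternatives were chosen after seeing the data, and for these too no share of all genes was computed. In Avp cells, members past 2-fold higher were 3 with classes at 10 or 1000 CPM, 2 without the top cells or the microglia-marker cells, and 6 at lower cell numbers; those lower were 4 with classes at 1000 CPM, by the mean over cells and in thinned cells. In Vip cells, those higher were 2 with classes at 10 or 1000 CPM, at lower cell numbers and without Slc17a6 cells, and 0 at higher cell numbers; those lower were 6 with classes at 10 or 1000 CPM. Kcnip4 in Avp cells turned to -0.17 without microglia-marker cells, and Kcnip2 in Vip cells to 0.81 with classes at 10 CPM. The cause was not tested, except that lower minimums admit more members. No paired analysis was possible because no result comes from a test and cell numbers pair no cells. With 1 sample per group, counting intervals leave out the spread between animals.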
